A study of Arabidopsis thaliana with 44 samples.

Results

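The genes described here, chosen by their mean CPM in ddm1 and in the wild types, are nuclear genes of Arabidopsis thaliana whose RNA was much lower in shoot apices labelled ddm1 than in wild-type apices. A gene was taken when its mean over the 16 wild-type libraries was at least 3 CPM (counts per 1000000 counts of the library) and its mean over the 4 ddm1 libraries was at most 0.4 times that wild-type mean. DDM1 itself, ROS1 and FLC were left out by the rule. It found 96 of the 29417 nuclear genes in the table, or 0.738% of the 13014 nuclear genes with a wild-type mean of at least 3 CPM. Because the contrast of ddm1 with the wild types chose these genes, their low values in ddm1 are a description and carry no test. The choice did not use the 24 ago libraries, which are tested below. It did use the mean of the wild-type libraries, which are the control of each ago test and the data of all comparisons within the wild types. A gene high by chance in some wild-type libraries was thus more likely to be chosen, and the counts of members called in those comparisons describe the members and support nothing. The adjusted p-values of single members in all comparisons within the wild types, the interaction among them, are descriptions for the same reason.

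The study asked what ARGONAUTE proteins do in the shoot apical meristem. All 44 libraries came from shoot apices of the Col-0 ecotype, taken 7 days after germination from soil-grown plants under 16 h of light and 8 h of dark, and were made from TRIzol-extracted total RNA with the Smart-seq3 protocol, which amplifies full-length cDNA. The mutant groups were labelled ddm1, ago4, ago5, ago9, ago4ago9, ago5ago9 and ago4ago5ago9, with 4 libraries each, and the wild types were labelled wt col-0 and wt21, with 8 libraries each. The labels give no alleles, do not define wt21, and do not say whether libraries came from separate plants, so p-values measure only the spread between these libraries. Mutant groups hold replicates 1 to 4 only, whereas each wild type holds replicates 1 to 4 and 5 to 8.

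DDM1 is a chromatin remodeller of the SNF2 family. It lets DNA methyltransferases reach DNA packed in nucleosomes, and plants without it lose methylation and release transposable elements from silencing. AGO4 and AGO9 are ARGONAUTE proteins of the clade that binds small RNAs of the RNA-directed DNA methylation pathway, and AGO5 belongs to a different clade.

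The targeted genes checked the labels first. DDM1 RNA was 0.151, 0.684, 0.460 and 0.471 CPM in the 4 ddm1 libraries and 7.76 to 17.8 CPM in the 16 wild-type libraries, so the groups did not overlap. AGO4 RNA was 0 to 1.14 CPM in ago4 and 0.136 to 0.939 CPM in ago4ago9, against 19.2 to 33.1 CPM in the wild types. In the libraries labelled ago9, however, AGO4 RNA differed by replicate, with 0.184 CPM in the first, 0 CPM in the second, and 18.4 and 22.5 CPM in the other two. In the libraries labelled ago4ago5ago9 it was 14.2 to 27.7 CPM, within or near the wild-type range. AGO5 and AGO9 were too low in the wild types to check every library, at no more than 1.32 and 1.57 CPM. Library totals ran from 4474810 to 10620119 counts. A count of 0 allowed up to 0.282 to 0.670 CPM (3 counts), which covers counting error only.

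Of the 96 genes, 92 were protein coding and 93 had a RefSeq entry. The median ratio of ddm1 to the wild types was 0.255, while the median over all 13014 nuclear genes at that level was 1.06. The ratio was under 0.1 in 21 genes and between 0.3 and 0.4 in 38. Wild-type means ran from 3.005 to 1011 CPM with a median of 8.40 CPM. Near the ratio limit, AKN2 at 0.391 and NSP5 at 0.393 lay just inside, and AT5G56100 and AAE18, both at 0.407, lay just outside. Near the level limit, AT4G14620 at 3.005 CPM and AT1G58280 at 3.03 CPM lay just inside, and AT5G57760 at 2.9955 CPM and NRT2.3 at 2.96 CPM just outside. The members lay on all 5 chromosomes, with 23, 20, 21, 12 and 20 on chromosomes 1 to 5. There were 4 pairs of neighbouring members: AT3G16660 with AT3G16670, LSU3 with LSU1, ABCI17 with AT1G67950, and UGT73C6 with DOGT1. In bulk tissue, fewer cells of a type and less RNA per cell cannot be told apart.

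For 10 members the count appeared to move between entries of the table from library to library, though a division of reads was not tested. Each was at 0 in some wild-type libraries and well detected in others, and a partner entry was high where the member was at 0. For 8 of the 10 the partner was taken as the entry with the lowest correlation over the 44 libraries, ddm1 included, so that opposite course and part of the steadiness of the sum follow from the choice. AT1G16860 was at 0 in 21 of 44 libraries, among them all 4 ddm1 libraries, and reached 17.5 CPM elsewhere, with a correlation of -0.93 with AT1G16858 over the 44 libraries, a description since both share library and depth. Their sum was 14.4 ± 1.54 CPM in ddm1 (SD, n = 4) and 13.4 ± 2.09 CPM in the wild types (SD, n = 16). The others were AT1G24800, AT1G53880, WNK10, AT1G68552, AT14A, AT4G14620, AT5G64550, AT5G09461 and AT5G09462. The link was weakest for AT14A and AT5G64550, with correlations of -0.58 and -0.70. The SD of their sums over the 44 libraries was 0.46 and 0.45 of the mean, so these sums were not steady and the move is less clear. For all 10, the ratio of ddm1 to the wild types by the sum with the partner was 0.788 to 1.41, so none of them met the rule by its sum. All 7 members with no count in any ddm1 library belong to these 10. They are not described further, and 86 members remain. SRG3, PDX1L4 and UGT73C6 also held fractional counts in 43, 44 and 41 libraries, as when a read is divided between similar genes, and are uncertain for that reason. Some other members held them in fewer libraries, among them AT2G13550 in 29, DYL1 in 19 and AT1G58602 in 16.

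The wild-type libraries themselves fell into sets that bear on the choice. Since all mutant libraries are numbered 1 to 4, the mean over 16 wild-type libraries mixes 8 libraries that share those numbers with 8 that do not. Each ddm1 mean was therefore set against both. Relative to wild-type replicates 1 to 4, 66 of the 96 members were at or under 0.4, 30 were over 0.4, and 3 of these, PAP17, SRG3 and SPX1, were over 1. Relative to replicates 5 to 8, 84 were at or under 0.4 and 11 over it; AT1G24800 was at 0 in that set. Without the 10 genes with a partner entry, 57 of 86 were at or under 0.4 relative to replicates 1 to 4, and 47 were so relative to both sets.

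**Figure D1:**
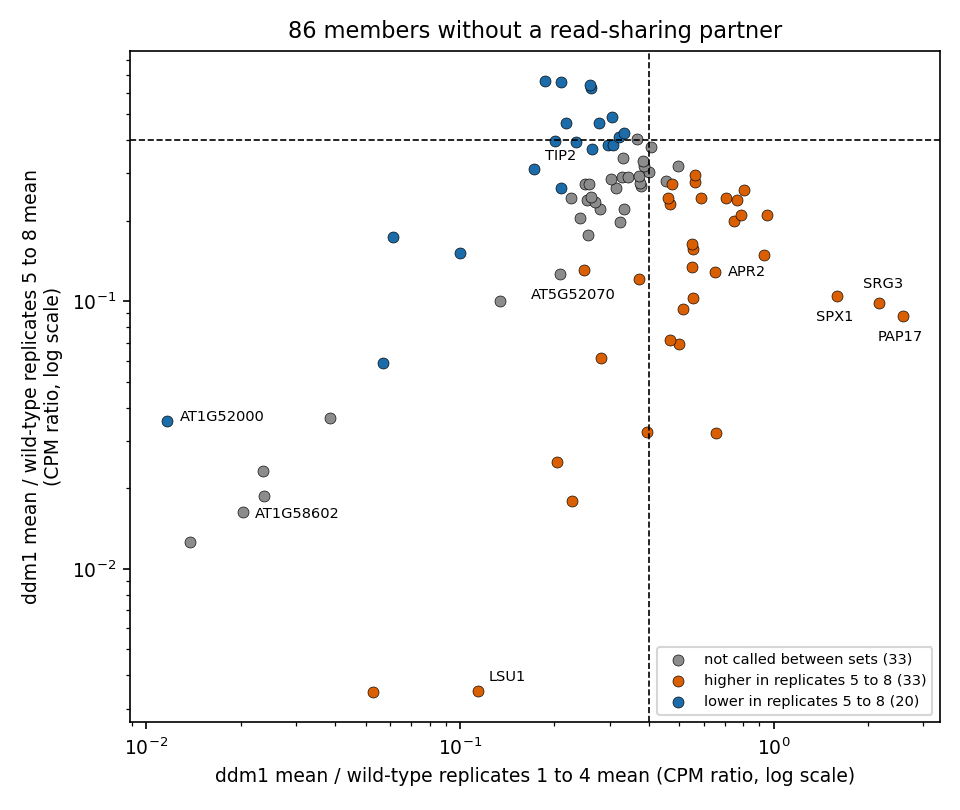
Ratio of the ddm1 mean to the mean of wild-type replicates 1 to 4 (horizontal) and to that of replicates 5 to 8 (vertical) for 86 members, as CPM ratios on log axes, with dashed lines at 0.4. Colour gives the test between the wild-type sets; the 33 members higher in replicates 5 to 8 lie mostly right of the vertical line, and PAP17, SRG3 and SPX1 lie beyond a ratio of 1.

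The difference between the wild-type sets was tested directly, with all 44 libraries in one edgeR quasi-likelihood fit and Benjamini-Hochberg adjustment over 17557 features. Of the 95 members that passed the filter on low counts, 53 were called at an adjusted p under 0.05, against 18.6% of all features tested. In replicates 5 to 8, 33 members were higher, against 9.23% of features, and 20 were lower, against 9.35%. Within wt col-0 alone 42 members were called, against 9.9% of features, and within wt21 alone 27, against 4.16%. The rule averages over both sets, so a gene high in only one of them could enter by that alone, and the count describes who the members are. Of the 33 higher in replicates 5 to 8, 25 had a ddm1 mean over 0.4 times that of replicates 1 to 4, with a median ratio of 0.552. All 20 of the lower ones were at or under 0.4 (median 0.226), as were 37 of the 42 not called (median 0.274). The rule sets much of this beforehand. A member with a lower mean CPM in replicates 5 to 8 must be at or under 0.4 relative to replicates 1 to 4. A higher one is pushed the other way, so nothing is read from these counts. The sets also differed in depth, at 4985459 to 6577655 counts for replicates 1 to 4 and 7529639 to 10168457 for 5 to 8, and in organelle genes, at 7.70% to 14.4% and 2.80% to 6.94% of counts. The part of these in the set difference was not tested. The labels give only the replicate numbers, and for any ddm1 difference from replicates 5 to 8 the genotype and the set cannot be told apart.

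**Figure D2:**
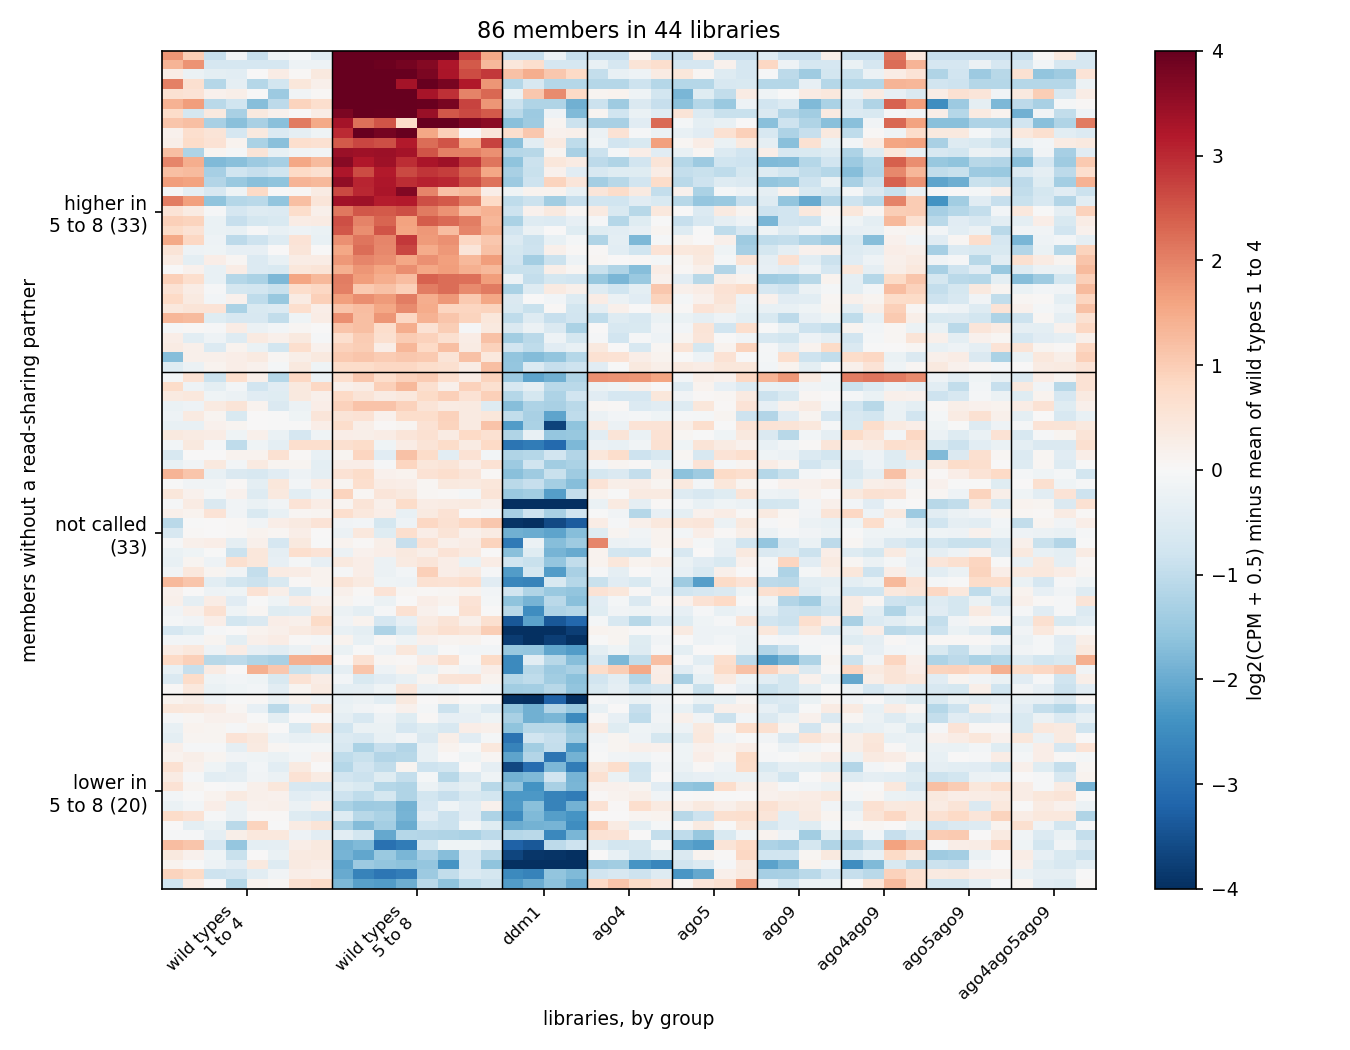
Each row is 1 of 86 members and each column 1 of 44 libraries; colour is log2(CPM + 0.5) minus the mean of wild-type replicates 1 to 4. The upper block of 33 rows is high in wild-type replicates 5 to 8, while in ago4ago9, where 8 of the 33 were below replicates 1 to 4, several rows are high in replicates 3 and 4; the lower blocks of 33 and 20 rows are low in ddm1 and near 0 in most ago libraries.

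The genes lowest in ddm1 whichever wild-type set is used are described first. There were 47 members at or under 0.4 relative to both sets and without a partner, with median ratios of 0.255 and 0.222. In 30 of them every ddm1 library lay below all 16 wild-type libraries, and 8 were under 0.1 relative to both sets. These were AT1G52000, AT3G16670, AT1G58602, AT1G67950, AT3G16660, AT2G43590, ATSDI1 and AT4G10060. The choice of genes low in ddm1 favours such separation, and the share over all genes is not given here. Between the wild-type sets, 28 of the 47 were not called, 11 were lower and 8 higher in replicates 5 to 8.

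AT1G58602 encodes a disease resistance protein with NB-ARC and leucine-rich repeat domains, the family of intracellular immune receptors of plants. Its RNA was 0.453, 0.684, 0.461 and 0.474 CPM in the ddm1 libraries. Wild-type replicates 1 to 4 gave a lowest, median and highest value of 16.5, 23.3 and 36.7 CPM, and replicates 5 to 8 gave 27.0, 30.8 and 41.3 CPM. The ddm1 libraries were thus near the limit of detection and far from every wild-type library, with a ratio of 0.0203 to replicates 1 to 4. No ago group came near them, since the lowest of the 24 ago libraries held 11.2 CPM in ago5ago9. Of 7 listed RPP4/RPP5 cluster genes, other receptors of this class, 0 were members, but 2 reached the wild-type level that the rule asks for.

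AT3G16660 and AT3G16670 are neighbours on chromosome 3 and both encode proteins of the pollen Ole e 1 allergen and extensin family, small secreted proteins. AT3G16670 was at 0.151, 0, 0 and 0.942 CPM in ddm1, and at 12.0 to 26.8 CPM in wild-type replicates 1 to 4 and 7.84 to 38.9 CPM in replicates 5 to 8. AT3G16660 was at 0.151, 0, 0.307 and 0.471 CPM in ddm1, against 4.12 to 20.3 CPM over all wild-type libraries. Neither gene overlapped between ddm1 and any other group. Both were also higher in wt21 than in wt col-0, by 0.95 ± 0.17 (log2 fold change ± SE, adjusted p = 0.00427) for AT3G16660 and by 1.06 ± 0.19 (adjusted p = 0.00427) for AT3G16670, by edgeR. 

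The 250 bases before the annotated starts of both neighbours are printed because the genes stand side by side and were both near 0 in ddm1. The sequences are from RefSeq assembly TAIR10.1, 5′ to 3′ on the gene's strand (+ for both), at chr3:5676499-5676748 for AT3G16660 and chr3:5681130-5681379 for AT3G16670. Capitals mark CG dinucleotides, the main context of DNA methylation in plant genes.
AT3G16660: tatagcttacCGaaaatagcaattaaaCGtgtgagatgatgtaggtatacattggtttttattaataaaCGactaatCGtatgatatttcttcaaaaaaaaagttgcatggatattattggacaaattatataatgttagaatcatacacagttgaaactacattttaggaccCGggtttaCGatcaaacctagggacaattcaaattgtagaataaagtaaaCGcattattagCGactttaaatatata
AT3G16670: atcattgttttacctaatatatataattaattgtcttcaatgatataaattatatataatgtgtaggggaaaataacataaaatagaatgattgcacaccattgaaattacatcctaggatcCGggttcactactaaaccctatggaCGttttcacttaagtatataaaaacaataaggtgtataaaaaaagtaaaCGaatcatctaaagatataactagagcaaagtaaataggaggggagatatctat
The first holds 8 CG dinucleotides and the second 3. Over 93 member promoters of this length the median was 4 (range 0 to 12), and over 27987 promoters of genes in the table it was 5. DNA methylation was not measured here.

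AT1G52000, a mannose-binding lectin, had the lowest ratio to wild-type replicates 1 to 4 of the 47, at 0.0116. It was 0.453, 0.0977, 0.614 and 0.471 CPM in ddm1, 23.5 to 44.6 CPM in wild-type replicates 1 to 4 and 6.23 to 21.3 CPM in replicates 5 to 8. The wild-type sets did not overlap, and ddm1 lay below both. A related lectin among the members, AT1G52100, had a ddm1 mean of 4.59 CPM against 11.4 and 15.1 CPM in the sets.

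AT1G67950 encodes an RNA-binding protein with an RRM motif. It was 12.8 ± 1.89 CPM in wild-type replicates 1 to 4 and 12.9 ± 1.45 CPM in replicates 5 to 8 (SD, n = 8 each). In ddm1 it was 0.453, 0.195, 0.460 and 0.0942 CPM. Its neighbour ABCI17, a non-intrinsic ABC protein, was less changed, at a ddm1 mean of 2.62 CPM against 5.53 and 9.54 CPM. The neighbours had ratios of 0.0235 and 0.473 to replicates 1 to 4.

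AT4G10060, a beta-glucosidase of the GBA2 type, was 2.12, 1.76, 3.84 and 1.51 CPM in ddm1 and 30.1 to 52.5 CPM in all wild-type libraries, again with no overlap. AT2G43590, of the chitinase family, averaged 0.194 CPM in ddm1 against 5.03 and 5.33 CPM in the sets. Other defence-related members were less reduced. The defensin-like gene AT3G05730 was 95.9, 190.2, 34.7 and 149.9 CPM in ddm1 against 370.5 to 1002 CPM in the wild types, and PRB1, a basic pathogenesis-related protein, averaged 1.01 CPM against 4.05 and 7.67 CPM. A list of 16 salicylic acid defence genes held 0 members, but 5 of them reached the wild-type level of the rule.

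**Figure D3:**
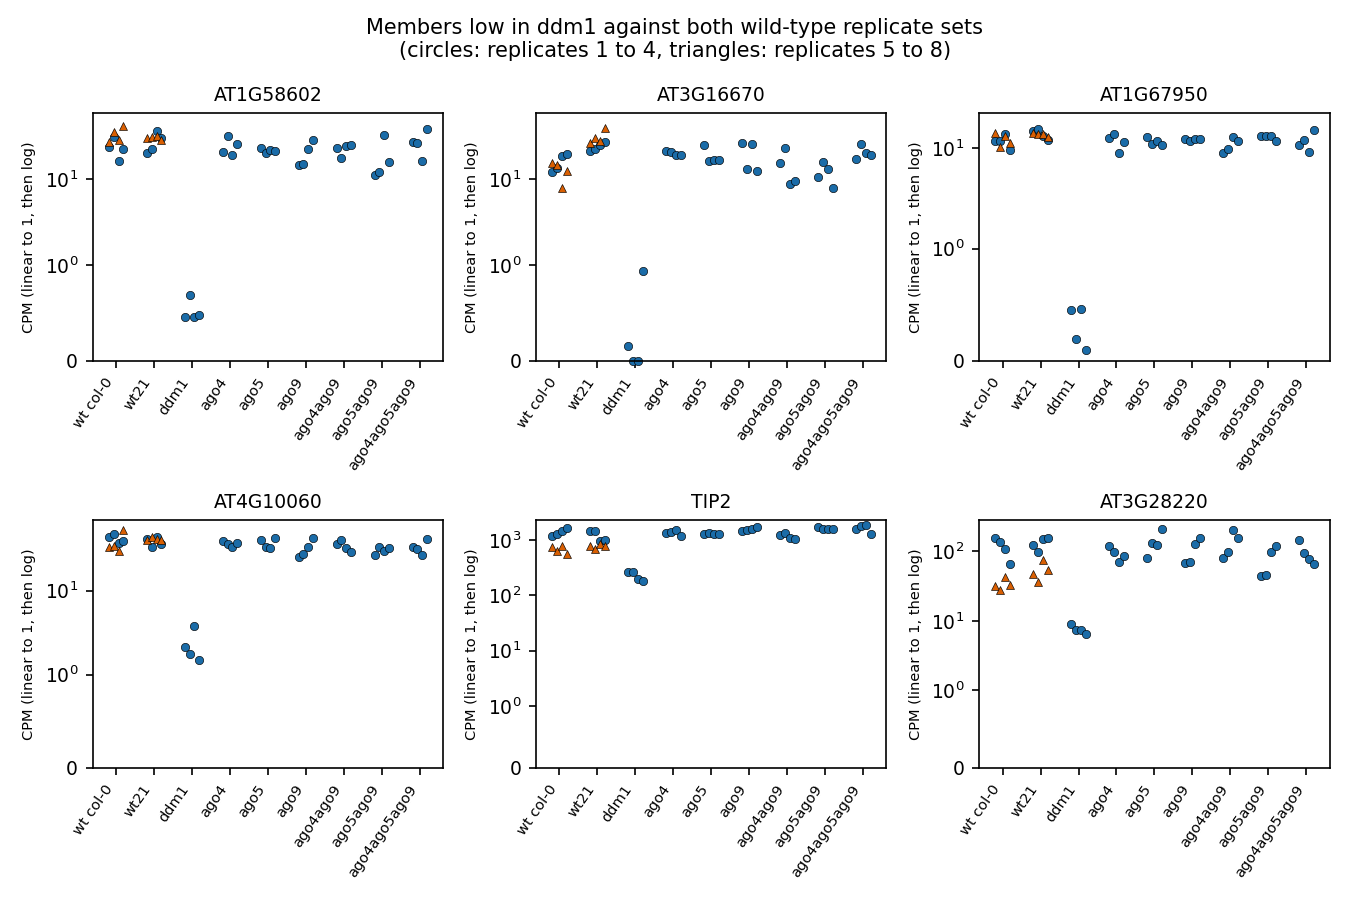
CPM of 6 members in each of the 44 libraries by group, on an axis that is linear to 1 and logarithmic above. For AT1G58602, AT3G16670, AT1G67950, AT4G10060 and AT3G28220 the 4 ddm1 libraries lie below every other library, and for TIP2 they lie at 182 to 260 CPM, also below every other.

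Among the most abundant members were TIP2 and LHCB2.3. TIP2, a water channel of the vacuolar membrane, was 259.6, 258.7, 198.9 and 182.4 CPM in ddm1. It was 962 to 1647 CPM in wild-type replicates 1 to 4 and 562 to 825 CPM in replicates 5 to 8. LHCB2.3, a chlorophyll-binding protein of the photosystem II antenna, was 155.6, 234.4, 115.4 and 199.2 CPM in ddm1, 621 to 900 CPM in replicates 1 to 4 and 199.6 to 833 CPM in replicates 5 to 8. TIP2 did not overlap with either set, whereas LHCB2.3 overlapped with replicates 5 to 8. Both were lower in replicates 5 to 8 than in 1 to 4, by -1.09 ± 0.11 for TIP2 (adjusted p = 2.99e-09) and -1.11 ± 0.16 for LHCB2.3 (adjusted p = 2.58e-06, log2 fold change ± SE, edgeR).

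Markers of mesophyll moved with these genes. The summed level of 10 mesophyll and photosynthesis markers, none of them a member, was 54119 to 82190 CPM in ddm1, 113794 to 141093 CPM in wild-type replicates 1 to 4 and 81340 to 128154 CPM in replicates 5 to 8. Their median ratio of ddm1 to replicates 1 to 4 was 0.551, above the 0.173 of TIP2 and the 0.234 of LHCB2.3. The part of cell makeup in the level of either gene was not tested. The 10 shoot meristem markers summed to 25.7 to 38.4 CPM in ddm1, 15.1 to 20.8 CPM in replicates 1 to 4 and 19.2 to 34.3 CPM in replicates 5 to 8. The 10 vascular markers summed to 81.1 to 112 CPM, 52.6 to 69.4 CPM and 80.9 to 101 CPM in the same order. Both sums were higher in ddm1 than in replicates 1 to 4 with no overlap, and overlapped with replicates 5 to 8. Epidermal markers overlapped, at 1107 to 1529 CPM and 1098 to 1453 CPM, and embryo and seed markers were at or near 0, with at most 0.408 CPM in any wild-type or ddm1 library.

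Jasmonate genes were represented by LOX2 and AOC1, enzymes of the route that makes jasmonate from fatty acids. LOX2 was 9.82, 10.65, 10.9 and 6.87 CPM in ddm1, 18.9 to 76.1 CPM in wild-type replicates 1 to 4 and 9.93 to 37.6 CPM in replicates 5 to 8. It did not overlap with the first set but did with the second. LOX2 was also lower in replicates 5 to 8 (-1.34 ± 0.19, adjusted p = 1.23e-06) and higher in wt21 than in wt col-0 (1.1003 ± 0.19, adjusted p = 0.00403, edgeR). AOC1 averaged 1.0003 CPM in ddm1 against 3.18 and 3.78 CPM. Over the 9 of 18 listed jasmonate genes with a wild-type mean of at least 3 CPM, the median ratio of ddm1 to replicates 1 to 4 was 0.602, and AOC2, at 3.15 CPM against 6.01 and 6.43 CPM, missed the rule.

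AT3G28220, a TRAF-like protein, was 8.91, 7.52, 7.52 and 6.403 CPM in ddm1 and 65.0 to 156.4 CPM in wild-type replicates 1 to 4. Replicates 5 to 8 lay between, at 27.8 to 74.5 CPM, and overlapped with replicates 1 to 4 but not with ddm1. The dormancy-associated gene DYL1 was 6.95, 6.35, 14.3 and 12.3 CPM in ddm1, 24.2 to 81.1 CPM in replicates 1 to 4 and 5.45 to 29.5 CPM in replicates 5 to 8. Here ddm1 lay within replicates 5 to 8, and the fall between the wild-type sets was -2.10 ± 0.30 (adjusted p = 1.50e-06, edgeR), which was not called in wt21 alone (-1.13, adjusted p = 0.0987).

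Regulators among the 47 were few. TCP10, a TCP transcription factor of leaf development, averaged 4.21 CPM in ddm1 against 16.3 and 15.4 CPM in the sets, a ratio of 0.258 to replicates 1 to 4. AGL87, a MADS-box factor, averaged 4.66 CPM against 19.3 and 22.8 CPM, and MYB47 2.76 CPM against 8.42 and 9.44 CPM. Outside the 47 was MAF5, a MADS-box relative of the flowering repressor FLC. MAF5 was at 1.38 CPM against 4.31 and 3.37 CPM, a ratio of 0.321 to replicates 1 to 4 and 0.411 to replicates 5 to 8. Metabolic members included ARGAH2, an arginase, at 0.785 CPM against 7.87 and 5.17 CPM, and MSRB6, a methionine sulfoxide reductase, at 2.28 CPM against 17.0 and 22.9 CPM. A list of 16 DNA methylation genes, without DDM1 and ROS1, held 0 members, and 12 of them reached the wild-type level of the rule. At a share of 0.738% a list of such a size would hold few members or none, so these lists show no absence.

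The members high in wild-type replicates 5 to 8 were led by genes that plants switch on when nutrients run short. Sulfate is reduced by APS reductases, and LSU genes and ATSDI1 mark low sulfur supply. PAP17, SRG3 and SPX1 mark low phosphate, and PYE is a bHLH regulator of the iron deficiency response. Of a list of 28 sulfur genes, drawn up after the member names were seen and therefore no independent evidence, 12 were members. In replicates 5 to 8, 15 of the 25 tested were higher and 1, SULTR2;1, lower than in replicates 1 to 4. Of all features tested, 9.23% were higher and 9.35% lower, the shares to set beside the phosphate and iron counts too. The median log2 difference of the sulfur genes was 0.75. For phosphate, 3 of 15 listed genes were members and 9 of 12 tested were higher, with a median of 1.91. For iron, 2 of 15 were members and 9 of 11 tested were higher, with a median of 1.31. The 9 include FER3 (0.33 ± 0.09, adjusted p = 0.00731, edgeR). The listed FER genes encode ferritins, which store iron and are not switched on by iron shortage. FER1 and FER4 were not called (-0.16 and -0.23).

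APR2, which reduces activated sulfate, was the most abundant of these. It was 16.0, 25.009, 83.0 and 62.1 CPM in ddm1. In wt col-0 it was 142.3, 137.9, 19.7 and 15.5 CPM in replicates 1 to 4 and 351 to 525 CPM in replicates 5 to 8. In wt21 it was 13.5, 14.1, 117 and 112 CPM in replicates 1 to 4 and 203 to 380 CPM in replicates 5 to 8. Within replicates 1 to 4 the libraries thus fell into pairs, and ddm1 lay within their range, at a ratio of 0.652. ago4ago9 showed the same spread, at 17.9, 24.5, 231 and 157 CPM. The sets differed by 2.12 ± 0.47 (log2, adjusted p = 0.00112, edgeR).

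LSU2, a small protein that accumulates under low sulfur, was 1.51, 1.07, 1.07 and 0.471 CPM in ddm1. It ran from 0.609 to 11.1 CPM in wild-type replicates 1 to 4, overlapping with ddm1, and from 11.9 to 96.2 CPM in replicates 5 to 8. LSU1 and LSU3, neighbours on chromosome 3, were low in replicates 1 to 4, at 0 to 2.75 CPM and 0 to 2.28 CPM with means of 0.673 and 0.530 CPM, and averaged 22.0 and 10.8 CPM in replicates 5 to 8. ATSDI1 likewise averaged 0.928 CPM and 14.1 CPM. A ratio of ddm1 to replicates 1 to 4 therefore rests on few counts for LSU1, LSU3 and ATSDI1. The set differences by edgeR were 3.41 ± 0.39 for LSU2 (adjusted p = 2.10e-08) and 4.96 ± 0.55 for LSU1 (adjusted p = 1.68e-08).

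APR1 and APR3, the other APS reductases, averaged 15.0 and 9.70 CPM in ddm1, 27.3 and 18.9 CPM in replicates 1 to 4, and 146 and 104 CPM in replicates 5 to 8. SHM7, a serine hydroxymethyltransferase, followed the same order at 4.05, 7.35 and 30.1 CPM. AKN2, an APS kinase, did not. It averaged 9.56 CPM in ddm1 and 23.6 and 25.3 CPM in the sets, which were not called as different (-0.14 ± 0.22, adjusted p = 0.739, edgeR). SIR and APS2, sulfite reductase and an ATP sulfurylase, were not members, at ratios of 1.0002 and 1.08 to all wild-type libraries.

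PAP17, a purple acid phosphatase, was 3.63, 4.59, 3.38 and 2.73 CPM in ddm1 and 0.890 to 1.92 CPM in wild-type replicates 1 to 4. Every ddm1 library was above every one of these 8, so the gene that the rule took as lowered was higher in ddm1 than in the wild types with the same replicate numbers. In replicates 5 to 8 it was 41.7, 89.2, 48.2 and 79.8 CPM in wt col-0 and 24.8, 17.3, 10.7 and 12.6 CPM in wt21. The set difference was 4.33 ± 0.28 (log2, adjusted p = 5.25e-15, edgeR). PAP17 averaged 1.39 CPM in replicates 1 to 4, so it reached the 3 CPM of the rule only through replicates 5 to 8. The same holds for SRG3, SPX1, LSU1, LSU3 and ATSDI1. It also holds for further members, such as AT5G26220 and SERAT3;2, which averaged 2.09 and 2.66 CPM in replicates 1 to 4. Their set differences describe how they were chosen and are no independent evidence.

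SRG3, a glycerophosphodiester phosphodiesterase that frees phosphate from lipid breakdown products, was 1.62, 4.80, 8.89 and 3.88 CPM in ddm1. It was 0.426 to 3.34 CPM in replicates 1 to 4, overlapping with ddm1, and 9.42 to 107.9 CPM in replicates 5 to 8, a set difference of 3.85 ± 0.25 (adjusted p = 5.25e-15). SPX1, a phosphate sensor, was 2.12, 3.03, 1.38 and 1.41 CPM in ddm1 and 0.534 to 2.13 CPM in replicates 1 to 4. In replicates 5 to 8 it was 12.5 to 57.3 CPM in wt col-0 but 1.16 to 4.29 CPM in wt21. SPX1 and SRG3 were lower in wt21 than in wt col-0, by -2.03 ± 0.36 (adjusted p = 0.00403) and -1.46 ± 0.27 (adjusted p = 0.00427, edgeR).

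AT2G30766, an uncharacterized protein listed with the iron response, was 1.51, 1.07, 3.22 and 0.753 CPM in ddm1. It ran from 1.25 to 6.67 CPM in replicates 1 to 4 and from 22.8 to 82.3 CPM in replicates 5 to 8 (set difference 3.24 ± 0.25, adjusted p = 1.68e-12, edgeR). PYE was 3.02, 3.81, 3.84 and 2.73 CPM in ddm1, inside the 2.0012 to 6.39 CPM of replicates 1 to 4. In replicates 5 to 8, PYE was 23.9, 31.5, 37.6 and 50.5 CPM in wt col-0 and 14.6, 8.38, 9.24 and 4.19 CPM in wt21. Its set difference was smaller in wt21 than in wt col-0, with an interaction of -2.70 ± 0.45 (adjusted p = 0.00403, edgeR). PYE was the only member called in that test, which called 0.0342% of all features. Its ddm1 mean was 0.929 times that of replicates 1 to 4, so it met the rule only through replicates 5 to 8. The interaction uses those same libraries and is a description.

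**Figure D4:**
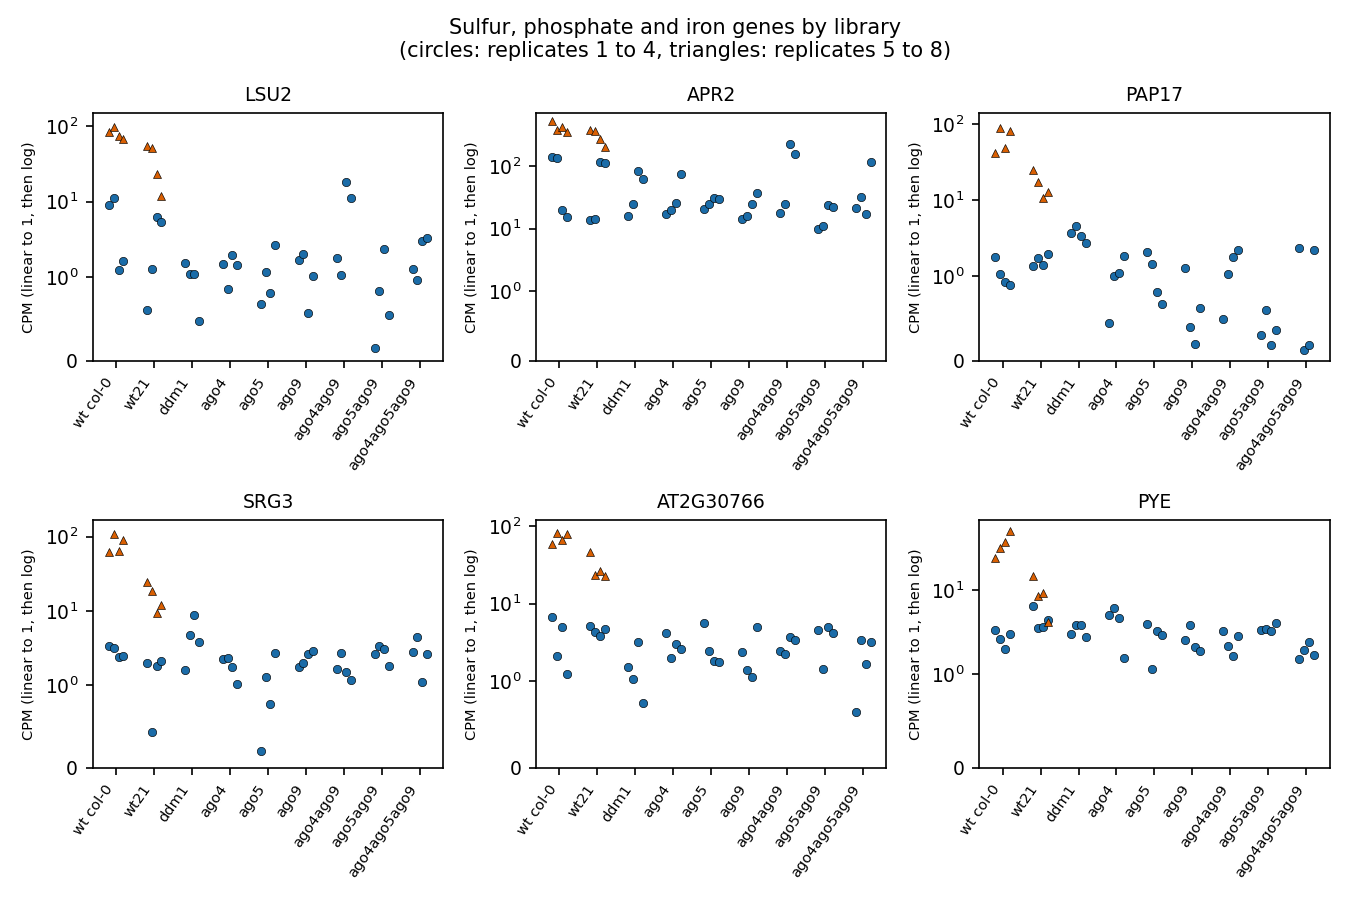
CPM of 6 nutrient genes in each of the 44 libraries by group, on an axis that is linear to 1 and logarithmic above. Triangles, wild-type replicates 5 to 8, lie above nearly all circles, and the ddm1 circles lie among those of the other groups except for PAP17 and SRG3. For PAP17 they lie above the wild-type circles, and for SRG3 they reach 8.89 CPM, above the highest other circle at 4.51 CPM.

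Promoters of the nutrient genes are shown for 2 members that hold a motif known from that response. The phosphate-response motif P1BS (GNATATNC, palindromic) stood at 2 places in the promoter of SRG3, at chr3:350011-350260 on the minus strand of TAIR10.1, where capitals mark it. The sulfur-responsive core GAGAC (either strand) stood once in that of ATSDI1, at chr5:19807854-19808103 on the minus strand, in capitals as its reverse complement.
SRG3: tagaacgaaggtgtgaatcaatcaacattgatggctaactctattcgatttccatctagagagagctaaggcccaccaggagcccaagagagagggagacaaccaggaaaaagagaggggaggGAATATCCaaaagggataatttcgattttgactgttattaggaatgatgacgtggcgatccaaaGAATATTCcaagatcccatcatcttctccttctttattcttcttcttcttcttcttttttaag
ATSDI1: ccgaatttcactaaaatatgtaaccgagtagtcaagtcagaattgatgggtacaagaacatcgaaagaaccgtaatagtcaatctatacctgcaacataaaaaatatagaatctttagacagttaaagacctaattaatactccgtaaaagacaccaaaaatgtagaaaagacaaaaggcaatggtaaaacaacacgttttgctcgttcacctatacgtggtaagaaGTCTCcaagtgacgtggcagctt
P1BS was in 9.68% of 93 member promoters and 5.44% of all 27987, and GAGAC in 23.7% and 25.8%. Among the 12 sulfur-list members GAGAC was in 2, and among the 3 phosphate members P1BS was in 1. Both motifs were added after the member names were seen. The G-box (CACGTG) was in 7.53% of member promoters and 6.46% of all, the evening element (AAAATATCT) in 3.23% and 2.36%, and the W-box core (TTGACC) in 9.68% and 12.1%. The telo-box (AAACCCTA) was in 3.23% and 4.53%, and TATAAA in 46.2% and 47.7%. The shares are descriptions of letters in this window, on both strands.

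Between wt21 and wt col-0, over all 8 libraries of each, 8 members were called, against 0.199% of all features. The rule averaged these same 16 libraries, so a gene high in one wild type could enter by that alone, and nothing is read from the count. Higher in wt21 were LOX2, LHCB2.3, AT3G16660, AT3G16670, AT1G66100 and AT2G29290, and lower were SPX1 and SRG3.

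The members were then followed in the ago groups, each set against wild-type replicates 1 to 4 by edgeR. Few were called. In ago4, 2 of 95 were called, against 0.365% of all features, and in ago4ago9 1 of 95, against 0.302%. None (0) was called in ago5, ago9, ago5ago9 or ago4ago5ago9, where 0.0171%, 0.0342%, 0.518% and 0.120% of all features were. At an unadjusted p under 0.05 the numbers were 11, 21, 43 and 11 of 95 in these 4 groups, against 7.16%, 11.2%, 11.9% and 12.3% of all features. DESeq2 called 0, 0, 3 and 1 of the 95, 4, 63 and 53 members it tested there, against 0.0228%, 2.51%, 1.44% and 0.993% of the features it tested. The 6 comparisons share their control libraries. The median log2 fold change of the members was -0.05, -0.14 and -0.32 in the groups labelled ago4, ago5 and ago9. It was 0.06, -0.31 and -0.19 in ago4ago9, ago5ago9 and ago4ago5ago9. In ago4ago9 it turned negative against other controls, at -0.04, -0.21, -0.14 and -0.18 against all wt col-0, all wt21, all 16 and replicates 5 to 8. The median over all features was 0 in each.

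The 24 ago libraries mostly held the genes low in ddm1 near wild-type levels. Over the 47 members low in ddm1 relative to both sets, the median ratio to wild-type replicates 1 to 4 was 0.897, 0.902 and 0.809 in the groups labelled ago4, ago5 and ago9, and 0.994, 0.799 and 0.877 in ago4ago9, ago5ago9 and ago4ago5ago9, where ddm1 had 0.255 by choice. At or under 0.4 were 6, 4, 7, 1, 7 and 2 of the 47. The share of all genes at or under 0.4 is not given here, so nothing is read from these counts. The lowest ratios belonged mostly to low-level sulfur genes, such as ATSDI1 in ago4 at 0.0294 and LSU1 in ago5ago9 at 0. AT1G67950 ran from 8.95 to 14.9 CPM over all 24 ago libraries and AT4G10060 from 25.4 to 42.5 CPM, close to their wild-type ranges. TIP2 was 1054 CPM or more in all of them.

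AT5G52070 stood apart. It encodes a protein with an Agenet domain, a fold of the Royal family that in other proteins binds modified histones. It was 1.06, 0.488, 0.614 and 1.32 CPM in ddm1 and 1.43 to 7.02 CPM in wild-type replicates 1 to 4, so low in ddm1 with no overlap but little distance. In ago4 it was 14.6, 14.2, 14.0 and 12.2 CPM, above every wild-type library, the highest of which held 8.34 CPM. In ago4ago9 it was 17.0, 18.24, 16.8 and 15.0 CPM. The increase was 1.83 ± 0.26 in ago4 (log2, adjusted p = 2.02e-05) and 2.08 ± 0.26 in ago4ago9 (adjusted p = 5.36e-07, edgeR), and neither call was lost under the 24 and 25 alternatives that gave an adjusted p.

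In ago9, AT5G52070 was 10.3, 13.5, 4.94 and 3.30 CPM, and the group was not called (1.09 ± 0.29, adjusted p = 0.146, edgeR). Replicates 1 and 2, the high ones, are the libraries in which AGO4 RNA was 0.184 and 0 CPM. Replicates 3 and 4 held AGO4 RNA and lay in the wild-type range. In ago5 it was 3.40 to 6.93 CPM, in ago5ago9 2.63 to 3.25 CPM and in the libraries labelled ago4ago5ago9 2.35 to 5.77 CPM, all within or near the wild-type range.

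Its promoter is printed because RNA of this gene moved in opposite directions in ddm1 and ago4. It lies at chr5:21160882-21161131 of TAIR10.1 on the plus strand, and capitals mark its 6 CG dinucleotides. That of AT1G52000, the other member called in ago4, lies at chr1:19336136-19336385 on the minus strand with 3.
AT5G52070: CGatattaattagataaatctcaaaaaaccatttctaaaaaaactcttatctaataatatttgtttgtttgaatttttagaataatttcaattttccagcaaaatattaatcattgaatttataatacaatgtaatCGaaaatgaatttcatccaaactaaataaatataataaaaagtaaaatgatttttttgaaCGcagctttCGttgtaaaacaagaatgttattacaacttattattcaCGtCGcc
AT1G52000: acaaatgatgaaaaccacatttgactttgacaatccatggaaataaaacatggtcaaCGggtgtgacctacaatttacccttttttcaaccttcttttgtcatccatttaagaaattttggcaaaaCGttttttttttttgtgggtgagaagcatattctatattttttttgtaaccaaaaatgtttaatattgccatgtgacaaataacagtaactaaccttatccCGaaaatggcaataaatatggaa

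AT1G52000 was lower in ago4, at 12.2, 12.8, 6.22 and 5.18 CPM against 23.5 to 44.6 CPM in wild-type replicates 1 to 4, a difference of -1.86 ± 0.36 (log2, adjusted p = 0.00432, edgeR). The groups did not overlap. Without ago4 replicate 3 the call was lost (-1.71, adjusted p = 0.0568), and against replicates 5 to 8, at 6.23 to 21.3 CPM, the difference was -0.01 (adjusted p = 0.99994). In ago4ago9 it was 5.71, 9.66, 22.1 and 16.1 CPM, not called (-1.31 ± 0.34, adjusted p = 0.0834). The ago9 replicates 1 to 4 held 7.36, 9.25, 38.0 and 32.0 CPM. The remaining groups held 17.7 to 44.5 CPM. Relative to wild-type replicates 1 to 4, this lectin gene was therefore low both in ddm1 and in ago4. Relative to replicates 5 to 8 it was low in ddm1 but not in ago4. The level in ago4 was not that of ddm1, since no ago library fell under 5.18 CPM.

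**Figure D5:**
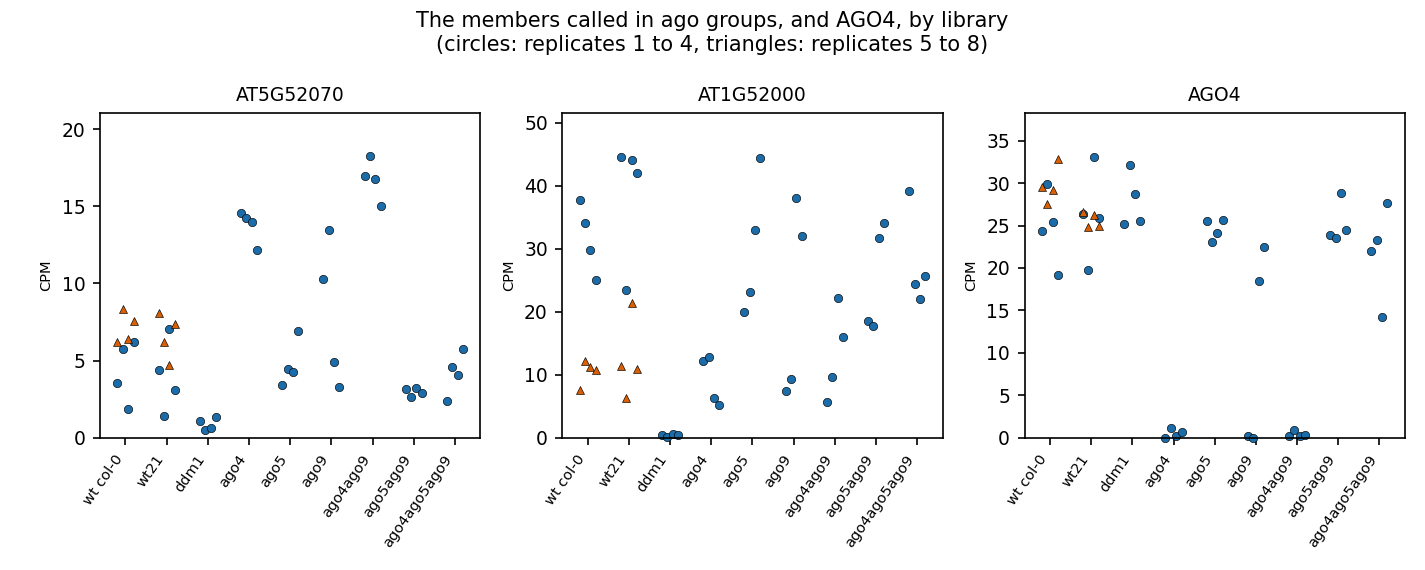
CPM of AT5G52070, AT1G52000 and AGO4 in each of the 44 libraries by group, on linear axes. AT5G52070 is at 12.2 CPM or more in every ago4 and ago4ago9 library and at 3.30 to 13.5 CPM in those labelled ago9, against at most 8.34 CPM in the wild types.

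Which control was used decided the number of calls in the ago groups. Against wild-type replicates 5 to 8, 47, 38, 46, 37, 50 and 41 members were called in ago4, ago5, ago9, ago4ago9, ago5ago9 and ago4ago5ago9, where 13.4%, 8.26%, 12.4%, 10%, 18.3% and 10% of all features were. Against all 16 wild-type libraries the numbers were 27, 19, 25, 18, 36 and 14, against 4.97%, 0.957%, 3.95%, 2.71%, 8.58% and 1.95%. With one wild type as the control, 35, 24, 29, 20, 39 and 22 were called against all 8 wt col-0 libraries, where 7.18%, 1.71%, 5.23%, 3.66%, 8.5% and 2.71% of all features were. Against all 8 wt21 libraries 12, 9, 14, 8, 30 and 6 were, with 1.18%, 0.251%, 1.56%, 0.985%, 5.16% and 0.615% of features. Over the 33 members higher in replicates 5 to 8, the median log2 difference of an ago group from replicates 1 to 4 ran from -0.84 in ago5ago9 to 0.26 in ago4ago9.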

How the data were processed

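The authors deposited 1 table of estimated counts, in which each library has its own column; 6.26% of its non-zero values were not whole, and all were rounded before testing. The submitters' processing notes name TAIR10 and DESeq2. Aligner, counting program, strand and use of molecular identifiers are not given in the sources used here. The members and gene lists were chosen with earlier results of these data known, and the genes named followed a written rule (lowest ratios, highest levels, called or listed members, neighbours, genes near the thresholds), to which others were added after their values were seen.

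CPM was computed on totals without the 2 reporter rows, which held 4.87e-05% of counts. Tests used edgeR 4.0.16 (R 4.3.3): TMM scaling (factors 0.855 to 1.33), filterByExpr, and 1 quasi-likelihood fit of 44 libraries with 11 means, since each wild type was split into replicates 1 to 4 and 5 to 8. Benjamini-Hochberg adjustment covered 17557 features, and an adjusted p under 0.05 was called. DESeq2 1.42.0 was an alternative. The fit was tested on simulated data. Names and sequences came from RefSeq assembly TAIR10.1. The 98 replicate pairs within groups all differed by more than sampling noise (chi-square per degree of freedom 2.84 to 128). Other steps ran in Python 3.11.15 (pandas 2.3.3, matplotlib 3.10.9, numpy 2.4.6).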

Additional observations from a re-analysis of the deposited data

Results flagged for a closer look

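Among 198 sets of library values checked (22 genes in 9 groups), 12 held a library far from the others of its group, and chance alone flags about 1 in 20. In ddm1, AT1G58602 was highest in replicate 2 at 0.684 CPM against 0.453 to 0.474 CPM, AT3G16670 in replicate 4 at 0.942 CPM against 0 to 0.151 CPM, and LSU1 in replicate 3 at 0.307 CPM against 0. LSU1 was also detected in 1 library of ago4, replicate 3 at 0.545 CPM, and of ago5, replicate 2 at 0.721 CPM, with 0 in the others. In ddm1 the LSU1 value was 2 counts, fewer than the 3 counts that a 0 allows. A lone value above zeros always meets this flag, so nothing is read from LSU1 here. In ago5, AT3G16670 was high in replicate 1 at 25.0095 CPM against 16.4 to 16.5 CPM, and AT3G16660 low in replicate 3 at 7.85 CPM against 12.3 to 13.1 CPM. AT1G67950 was low in ago5ago9 replicate 4 at 11.8 CPM against 13.03 to 13.2 CPM. In ago4 replicate 4, APR1 was 26.5 CPM against 13.8 to 15.5 CPM and APR2 74.0 CPM against 17.3 to 26.2 CPM, and APR2 was 118 CPM in ago4ago5ago9 replicate 4 against 17.0 to 31.8 CPM. AT3G05730 was 740 CPM in wt col-0 replicate 5 against 370.5 to 532 CPM.

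PYE differed between the wild types in its change between replicate sets, by -2.70 ± 0.45 on the log2 scale (wt21 minus wt col-0, adjusted p = 0.00403, edgeR). The same libraries brought PYE into the members, so this is a description.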

How the results depend on the processing

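The number of members was 58 at a ratio of 0.3 and 193 at 0.5, 164 at a wild-type minimum of 1 CPM and 45 at 10 CPM, 187 against wild-type replicates 5 to 8 only and 80 against replicates 1 to 4 only, of which 58 were among the 96; leaving out single libraries gave 93 to 136. Judged by sums with partners, an alternative added after seeing the data, it was 86, and leaving those 10 genes out changed no count of calls. Members called in ago4, ago5, ago9, ago4ago9, ago5ago9 and ago4ago5ago9 moved with the control: 35, 24, 29, 20, 39 and 22 against all 8 wt col-0 libraries, 12, 9, 14, 8, 30 and 6 against all 8 wt21 libraries, 27, 19, 25, 18, 36 and 14 against all 16, and 47, 38, 46, 37, 50 and 41 against replicates 5 to 8. Leaving out 1 library of the groups compared gave 1 to 3 in ago4, 0 in ago5, 0 to 1 in ago9 and ago4ago5ago9, 1 to 2 in ago4ago9 and 0 to 2 in ago5ago9. DESeq2 called 1 in ago4, 3 in ago5ago9 and 1 in ago4ago5ago9; its own filter left 29, 4, 63 and 53 members tested in ago4, ago9, ago5ago9 and ago4ago5ago9. In ago4ago9 the count was 2 without a filter on low counts and with only the groups compared fitted.

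Calls between the replicate sets numbered 27 in wt21 alone and 47 to 53 with 1 library left out. For the interaction, the count was 3 without a low-count filter and by DESeq2, 2 with nuclear genes only or with the wild types alone fitted, and 1 to 3 with 1 library left out. Between wt21 and wt col-0 the count was 7 to 9 with 1 library left out. Same-numbered libraries deviated together in every pair of ago9 with wt21 (0.19 to 0.33) and ago5ago9 with wt21 (0.13 to 0.39), but not of any group with wt col-0 or of wt21 with wt col-0, and no label says what a number marks, so the numbers were not taken to pair the groups; with a replicate block, 2 members were called in ago4ago9 and 4 between wt21 and wt col-0, SPX1 no longer among them (-2.87, adjusted p = 0.0687). No call changed sign, whereas the median over members in ago4ago9 did against 4 other controls. AT1G52000 in ago4 gave -0.73, -1.14, -0.94 and -0.01 against all wt col-0, all wt21, all 16 and replicates 5 to 8 (adjusted p = 0.231, 0.102, 0.0893 and 0.99994, edgeR), and was not called. The cause of these changes was not tested. Summed over the 4 ddm1 libraries, members had a median of 56.5 counts, which limits small ratios.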
